A study of Mus musculus with 2 samples.

Results

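The genes described here encode the secreted Wnt, fibroblast growth factor (FGF) and bone morphogenetic protein (BMP) ligands, together with the growth and differentiation factors (GDF) and the few relatives that carry the same family symbols. They were taken by symbol from the GENCODE M21 annotation of mouse (mm10), where 59 of 21938 protein-coding genes matched: 16 Wnt, 22 Fgf and 21 Bmp or Gdf genes. The rule left out 3 Wnt genes, namely Wnt4, Wnt9b and Wnt11. Accessibility at their promoters and in their surroundings was read from DNase-seq, in which DNase I cuts DNA that nucleosomes leave exposed, of kidney tissue from female B6CASTF1/J mice aged 36 days. These mice are first-generation hybrids of C57BL/6J and CAST/EiJ. The study held 1 group of 2 libraries, biological replicates 1 and 2, with no treatment, no second tissue and no control. The labels give each library a female of its own number but the same donor entry, so only the numbering shows that the animals differ.

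Wnt proteins are lipid-modified ligands that bind Frizzled receptors with Lrp5 or Lrp6 and stabilise beta-catenin, or act through Ror and Ryk receptors on cell polarity. Paracrine FGFs bind receptor tyrosine kinases with heparan sulfate, whereas endocrine FGFs use the co-receptors Klotho and beta-Klotho. BMPs and GDFs belong to the TGF-beta superfamily and signal through paired serine/threonine kinase receptors to SMAD proteins. All of these families act between epithelium and mesenchyme while the kidney forms. Whole tissue was sampled, so a site open in few cells and a site weakly open in many cells cannot be told apart.

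Replicate 1 had 124504 peaks and 375848 footprints, which are short stretches protected inside open DNA, and replicate 2 had 68056 peaks and 223827 footprints. Of the peaks of replicate 2, 96.3% overlapped a peak of replicate 1, against 52.7% the other way. Peak height below is the authors' signal value, whose scale the sources used here do not state, and its rank is given within the same library. The tissue label was checked against marker genes. Promoters of thick ascending limb, distal tubule, collecting duct, endothelial and stromal markers all had a peak in both libraries, as did 4 of 5 proximal tubule markers and 1 of 3 podocyte markers. None of the 3 liver, 3 muscle, 3 adipocyte and 3 immune markers had a promoter peak in either library, and of the 3 adrenal markers only Star had one.

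A promoter was called open when a peak of both libraries overlapped the 1 kb on either side of any annotated start of the gene, and closed when neither library had such a peak. By this rule 18 of the 59 ligand genes (30.5%) were open, against 60.7% of all protein-coding genes. A further 18 (30.5%) had a promoter peak in replicate 1 alone, against 6.19% of all genes, and Bmp2 (1.69%) had one in replicate 2 alone, against 0.169%. The remaining 22 (37.3%) were closed, against 32.9% of all genes. With the taller 50% of the peaks in each library the closed shares were 69.5% and 40.6%, and without replicate 1 they were 67.8% and 39.1%. In replicate 1 taken by itself 61.0% of the ligand genes had a promoter peak, near the 66.9% of all genes, while in replicate 2 the shares were 32.2% and 60.9%. The difference from all genes in the open share was thus small in the full peak set of replicate 1 and large in replicate 2, which had fewer peaks. It was also present among the stronger 50% of peaks, where 20.3% of ligands were open against 52.8% of all genes. Ligand genes had a median of 2 annotated starts, against 3 over all genes. The cause of the difference in the open share was not tested. With 2 libraries of 1 group there is no test between conditions, and the counts describe these libraries.

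**Figure D1:**
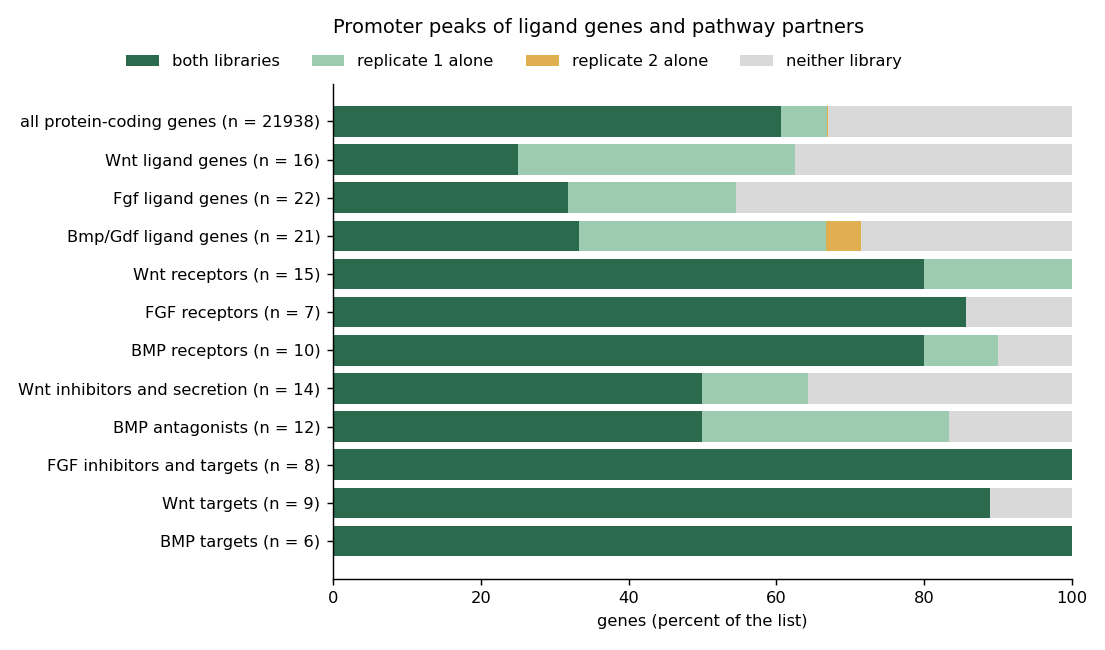
Share of genes (percent of each list) with a promoter peak in both libraries, in replicate 1 alone, in replicate 2 alone or in neither, for all protein-coding genes, the 3 ligand families and 8 lists of pathway partners. The ligand rows have between 25.0% and 33.3% in both libraries, and the receptor rows between 80.0% and 85.7%.

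Among the Wnt genes, 4 of 16 were open: Wnt5b, Wnt7b, Wnt9a and Wnt7a. Wnt5b, a ligand of the beta-catenin-independent branch, had the tallest promoter peak of the family, with heights of 5.61 in replicate 1 and 4.12 in replicate 2. That peak lay at an alternative start inside the gene, 77.0 kb from its 5′ end, and the peak nearest to the 5′ end was 38.3 kb from it in both libraries. Wnt7b, a ligand of the collecting duct epithelium that is needed for the medulla to form, had heights of 3.10 and 1.46. Wnt7a, known from limb and female reproductive tract patterning, had 2.77 and 0.998. Its peak lay 438 bp from its own start and 288 bp from a start of another annotated gene that is not coding. Wnt9a, which acts in joint formation, had 2.86 and 1.29 at a peak 991 bp from its start in replicate 1, at the edge of the window, and replicate 1 alone had a lower peak of 1.41 over the start. All 4 were taller in replicate 1 than in replicate 2. The open DNA of the first 2, which had the highest ranks of the family, and of Wnt7a, which held motif matches inside footprints, is shown 5′ to 3′ on the strand of the gene, here the minus strand of mm10, with capitals for bases inside footprints of both libraries. The windows were chr6:119467212-119467400 for Wnt5b, chr15:85583141-85583300 for Wnt7b and chr6:91411801-91411980 for Wnt7a. The Wnt5b window is the part of a 200 bp peak outside annotated untranslated sequence.
Wnt5b: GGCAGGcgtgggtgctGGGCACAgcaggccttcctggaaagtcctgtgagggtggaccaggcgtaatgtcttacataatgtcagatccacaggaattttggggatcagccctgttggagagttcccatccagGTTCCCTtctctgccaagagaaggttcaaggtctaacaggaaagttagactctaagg
Wnt7b: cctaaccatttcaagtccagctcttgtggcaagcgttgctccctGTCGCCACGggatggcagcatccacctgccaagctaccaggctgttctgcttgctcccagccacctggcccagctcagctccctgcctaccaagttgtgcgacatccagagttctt
Wnt7a: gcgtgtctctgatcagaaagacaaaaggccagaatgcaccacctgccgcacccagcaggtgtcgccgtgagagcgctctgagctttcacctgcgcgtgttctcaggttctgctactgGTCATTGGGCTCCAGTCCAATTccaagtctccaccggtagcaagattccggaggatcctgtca

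In Wnt7a the capitals span a pair of CCAAT boxes in opposite orientation, and in the Wnt5b and Wnt7b windows they hold none of the 9 motifs searched. Another 6 Wnt promoters had a peak in replicate 1 alone. Wnt5a, a ligand of tissue elongation, was the tallest of them at 1.13, and it differed from the rest in extent: 7 peaks of replicate 1, of which 1 lies inside another, and 21 of its footprints lay in the promoter windows, whereas replicate 2 had 4 footprints and no peak there. Replicate 2 came near the threshold at Wnt5a, since the lowest false discovery rate in the windows was 0.00124 and the peak set was drawn at 0.001. The others were lower: Wnt10a, a ligand of skin and teeth, at 0.946, Wnt10b, a ligand of bone and fat, at 0.761, Wnt2b at 0.566, and Wnt2, of placenta and lung, and Wnt16, of bone, at 0.538 each. Wnt1, Wnt3, Wnt3a, Wnt6, Wnt8a and Wnt8b were closed. These include ligands of midbrain (Wnt1), gastrulation (Wnt3) and tail elongation (Wnt3a).

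Of the 22 Fgf genes, 7 were open: 5 of 15 paracrine members, 1 of 3 endocrine members and 1 of 4 intracellular homologous factors, which are not secreted and bind sodium channels. Fgf1, acidic FGF, which binds every FGF receptor, led the family with heights of 5.95 and 4.28. Those values come from different starts of the gene, at the 5′ end in replicate 1 and 10.7 kb into the gene in replicate 2, but each start had a peak in both libraries. Fgf22, an organiser of synapses, had 4.69 and 1.79 at its 5′ end. Fgf20 and Fgf9, which maintain nephron progenitors in the embryonic kidney, had 3.29 and 1.78, and 2.62 and 1.88. The Fgf20 peak lay 403 bp from a start of the neighbouring gene Micu3 and over a start of another annotated gene that is not coding. Fgf18, a factor of skeletal growth, had 3.03 and 1.85. Fgf15, the hormone of the intestine that represses bile acid synthesis in mice, had 2.07 and 1.04, and the homologous factor Fgf11 had 1.46 and 0.947, the lowest of the open Fgf genes in both libraries. Fgf22 is shown on the plus strand at chr10:79754981-79755075, with capitals as above. This window is the part of its 160 bp promoter peak outside annotated untranslated sequence, and each of its GC boxes, read as CCGCCC on this strand, is capitalised.
Fgf22: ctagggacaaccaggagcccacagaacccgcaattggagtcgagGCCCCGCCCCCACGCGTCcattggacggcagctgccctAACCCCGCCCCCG

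A peak in replicate 1 alone was found at 5 Fgf promoters. Fgf4, of the early embryo and the limb, had 0.594, Fgf7, a mesenchymal factor that acts on epithelium, 0.418, the homologous factor Fgf12 0.408, Fgf10, the mesenchymal signal for lung and limb buds, 0.38 and Fgf5, which limits hair growth, 0.306. Their ranks among the peaks of replicate 1 ran from 1.72% at Fgf5 to 17.3% at Fgf4, so all 5 were among its low peaks. The closed Fgf genes numbered 10: Fgf2, Fgf3, Fgf6, Fgf8, Fgf13, Fgf14, Fgf16, Fgf17, Fgf21 and Fgf23. They include Fgf8, which nephrons need while they form, and the hormones Fgf21 of liver and Fgf23 of bone, the second of which acts on the kidney.

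In the Bmp and Gdf group 7 of 21 genes were open, including 4 of 10 BMP ligands, 2 of 10 GDF ligands and Bmp1, a procollagen protease that shares only the name. Gdf9, an oocyte factor, had the tallest promoter peak of all 59 genes, 32.7 in replicate 1 and 31.0 in replicate 2, each higher than 99.9% of the peaks of its library. That peak lay 70 bp from a start of Uqcrq, which encodes a subunit of respiratory complex III, so the peak cannot be assigned to Gdf9. Bmp6, which controls iron through hepcidin, had 9.11 and 5.13. Bmp4, which patterns the ureter, had 6.48 and 3.88 at a start within the gene, and a second site at its 5′ end had 1.53 and 1.35. The taller Bmp4 peak also lay over a start of another annotated gene that is not coding. Bmp7, required for nephron progenitors to survive, had 5.48 and 3.51 at its 5′ end. Gdf15, a stress hormone that acts in the hindbrain, had 4.61 and 2.90. Bmp1 followed with 2.85 and 1.30, and Bmp8a, a germ cell factor, with 1.78 and 0.733. Bmp8a was the lowest open promoter of all families in replicate 2, though not in replicate 1, where Fgf11 was. The open DNA of Gdf9, the tallest peak, of Bmp6, the next, and of Bmp4 and Gdf15, where motifs lay inside footprints, is shown with capitals as above. Gdf9 (chr11:53430901-53431100) and Bmp6 (chr13:38344961-38345106) are on the plus strand, and Bmp4 (chr14:46387281-46387520) and Gdf15 (chr8:70631561-70631612) on the minus strand. The Bmp6 and Gdf15 windows leave out annotated untranslated sequence.
Gdf9: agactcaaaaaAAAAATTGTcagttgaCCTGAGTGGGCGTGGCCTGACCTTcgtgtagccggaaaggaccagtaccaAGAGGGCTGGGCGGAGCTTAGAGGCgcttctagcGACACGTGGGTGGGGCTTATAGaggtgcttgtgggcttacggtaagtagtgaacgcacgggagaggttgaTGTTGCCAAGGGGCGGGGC
Bmp6: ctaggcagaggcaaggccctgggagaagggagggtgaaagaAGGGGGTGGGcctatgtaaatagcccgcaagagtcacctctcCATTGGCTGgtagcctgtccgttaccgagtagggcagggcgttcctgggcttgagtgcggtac
Bmp4: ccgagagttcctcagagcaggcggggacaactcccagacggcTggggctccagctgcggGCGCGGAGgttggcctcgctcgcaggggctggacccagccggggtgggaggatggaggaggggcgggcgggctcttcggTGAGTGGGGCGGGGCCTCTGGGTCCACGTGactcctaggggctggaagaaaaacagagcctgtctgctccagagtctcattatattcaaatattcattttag
Gdf15: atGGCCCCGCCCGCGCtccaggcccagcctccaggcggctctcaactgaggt

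In Gdf9 the capitals cover 99 of 200 bases and hold an E-box, CACGTG, and GC boxes, GGGCGG. In Bmp4 the longest run of capitals spans a GC box and an E-box. Bmp6 has a CCAAT box in capitals, read as ATTGG on this strand, and Gdf15 a GC box read as CCGCCC.

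Another 7 genes of the group had a peak in replicate 1 alone. Gdf11, which patterns the axial skeleton, and Gdf5, a joint factor, had the tallest, 1.29 and 1.22, followed by the oocyte factor Bmp15 at 0.835, Bmp8b at 0.798, the joint factor Gdf6 at 0.696, Bmp3, which restrains bone formation, at 0.566 and its relative Gdf10 at 0.455. Bmp2, a factor of bone and heart, was the exception, with a peak of 0.550 in replicate 2 and none in replicate 1. Its lowest false discovery rate was 5.87e-04 in replicate 1 and 3.10e-04 in replicate 2, so replicate 1 also had an interval under 0.001 there that is not in the stricter peak set. Bmp5, Bmp10, Gdf1, Gdf2, Gdf3 and Gdf7 were closed, among them the heart factor Bmp10 and the liver-derived Gdf2, also called BMP9.

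**Figure D2:**
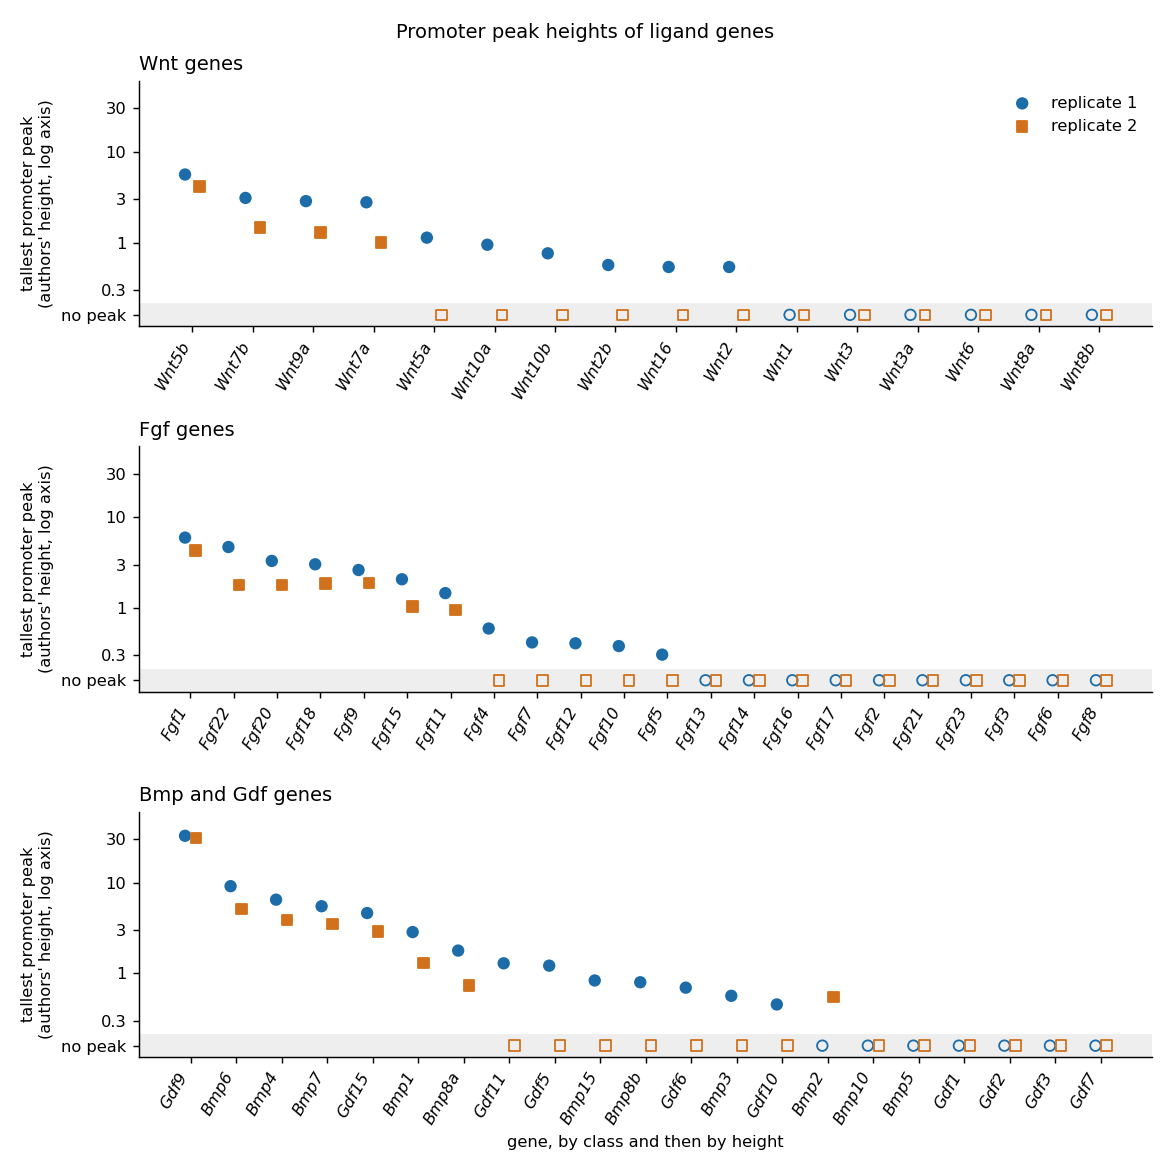
Height of the tallest promoter peak (authors' signal value, log axis) of each of the 59 ligand genes in replicate 1 (circles) and replicate 2 (squares), by family. Open symbols in the grey band mark libraries without a promoter peak. Gdf9 stands alone at 32.7 and 31.0, and the peaks found in replicate 1 alone lie between 0.306 and 1.29.

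Open ligand promoters were lower than open promoters in general. Their median height was 3.20 in replicate 1 and 1.82 in replicate 2, against 8.26 and 5.37 over all open genes. Heights were taken over any start, and open ligands had a median of 3 starts against 5 over all open genes. The part of the number of starts was not tested. All 18 open ligand promoters were taller in replicate 1. That count has no share over all open genes beside it, and the medians of all open genes differed in the same direction. The 18 peaks in replicate 1 alone ran from 0.306 to 1.29 with a median of 0.580, against 0.761 over all genes of that class, and none was as tall as the lowest open promoter of replicate 1, Fgf11 at 1.46.

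The absence of a peak in replicate 2 went with low height in replicate 1, for ligands and for other genes. Below a height of 0.5, all 5 ligand promoters had no peak in replicate 2, against 94.0% of all genes in that range, and from 0.5 to 1 all 10 had none, against 72.0%. From 1 to 2 it was 3 of 5 (Wnt5a, Gdf5 and Gdf11, but not Fgf11 and Bmp8a), against 28.8%. From 2 to 4 none of 8 was missing, against 2.72%, and at 4 or more none of 8, against 0.0296%. Whether height accounts for the ligands missing from replicate 2 was not tested.

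**Figure D3:**
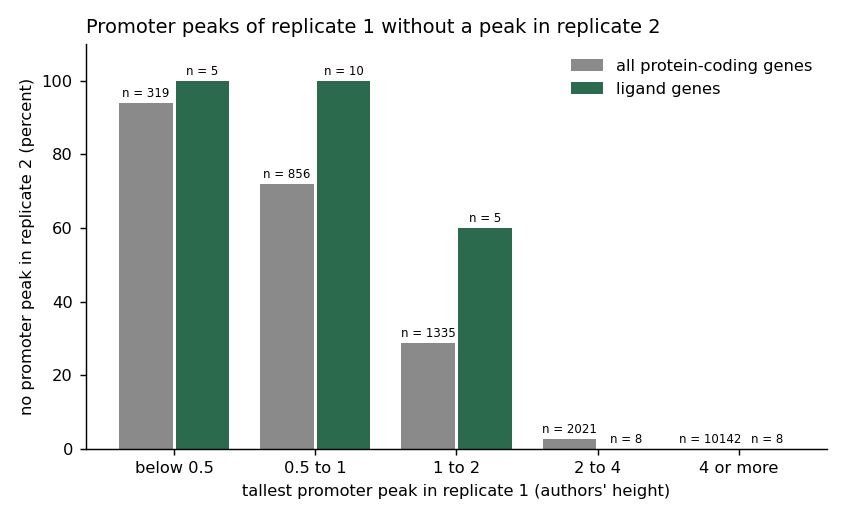
Percent of genes with a promoter peak in replicate 1 but none in replicate 2, by the height of that peak (authors' signal value), for all protein-coding genes and ligand genes. Bars fall from 94.0% of all genes and 5 of 5 ligand genes below 0.5 to 0.0296% and none of 8 at 4 or more.

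At most closed ligands no signal came near the threshold. At 15 of 22 (68.2%) no interval of either library had a false discovery rate under 0.05 in the promoter windows, against 85.2% of all closed genes. Replicate 1 had such an interval at 7, the lowest rate being 9.85e-04 at Fgf13, and replicate 2 at 2, Fgf2 at 2.54e-04 and Wnt1 at 0.00997. The Fgf13 and Fgf2 values are under 0.001, but no peak of the stricter set was there. In the authors' wider peak set, drawn at 0.05, Wnt1 and Fgf2 became open, Fgf13, Fgf14, Fgf16 and Fgf21 had a peak in replicate 1 alone, and 16 remained closed. Of the 18 genes with a peak in replicate 1 alone, 11 became open in the wider set, against 763 of the 1359 genes of that class in all. Open ligands then numbered 32 (54.2%), against 64.9% of all genes.

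Promoter accessibility is known to follow CpG content. The median ratio of observed to expected CpG around the 5′ end was 0.583 in ligand genes and 0.552 in all genes. With all genes split into 4 equal groups by this ratio, the open share rose from 16.4% in the lowest to 48.5%, 85.1% and 92.8%. Among ligand genes it was 2 of 5, 5 of 22, 3 of 17 and 8 of 15, so only 5 of the 59 fell in the lowest group. In the third group Bmp1, Bmp8a and Fgf15 were open, and the 7 closed ones included Wnt1, Wnt3, Wnt3a and Wnt6. In the highest group Fgf8, Fgf16 and Gdf7 were closed, with ratios of 0.789, 0.777 and 0.780. At the other end Fgf1 and Gdf15 were open with ratios of 0.198 and 0.213, in the lowest group. The ratio describes the DNA around the 5′ end, which need not be the open DNA. At several open ligands every shared promoter peak lay outside the stretch measured. These were Gdf15 in the lowest group, Fgf11 and Wnt7b in the second, and Wnt5b, Wnt9a and Fgf18 in the highest.

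**Figure D4:**
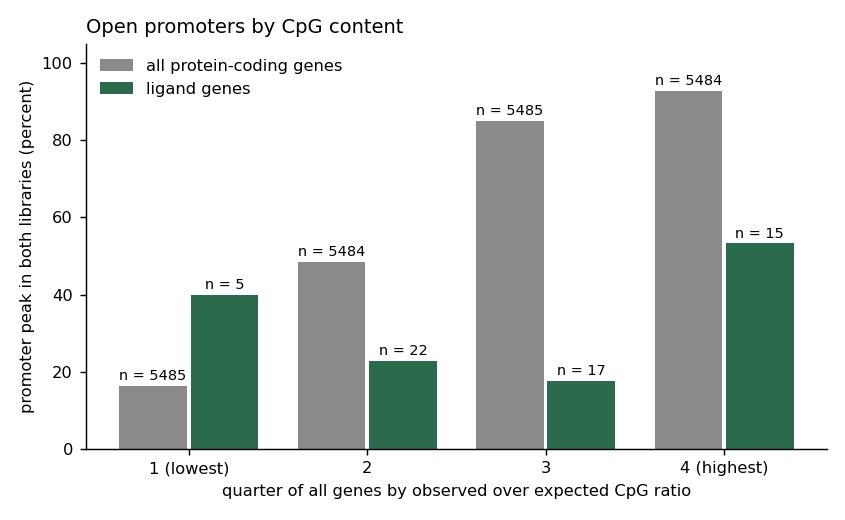
Percent of genes with a promoter peak in both libraries, by group of genes in order of the ratio of observed to expected CpG around the 5′ end, for all protein-coding genes and ligand genes (numbers of genes above the bars). All genes rise from 16.4% to 92.8%, and ligand genes have 40.0%, 22.7%, 17.6% and 53.3%.

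Footprints followed the peaks. A promoter footprint in both libraries was found at 26 ligand genes (44.1%), against 62.1% of all genes. In replicate 1 taken by itself 40 ligand genes (67.8%) had one, against 67.6% of all genes, and in replicate 2 it was 27 (45.8%), against 62.5%. All 18 open ligands had one in both libraries, against 98.8% of all open genes, as did 6 of the 18 with a peak in replicate 1 alone (33.3%, against 30.7% of all genes of that class). Bmp2 had one too, and of the closed ligands Fgf2 did (4.55%, against 0.484%). Open ligands had a median of 8 promoter footprints in replicate 1 and 4 in replicate 2, against 8 and 6 over all open genes. The most were at Fgf9, with 20 and 15, and Fgf1, with 20 and 11. Fgf9 had 8 promoter peaks in replicate 1 and 4 in replicate 2, spread over its starts, none of which was taller than 2.62.

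Motifs were searched on both strands in 300 bases at the 5′ end, 250 before and 50 after it. A promoter counted as open at any start, so these bases can lie outside its peaks. At Wnt5b, Wnt7a and Wnt7b, for example, no shared promoter peak reached them. The GC box GGGCGG was present at 14 of 18 open ligands, 8 of 18 with a peak in replicate 1 alone and 12 of 22 closed ligands, against 43.0% of all genes and 59.3% of all open genes. CCAAT was present at 3 of 18, 10 of 18 and 8 of 22, against 39.0% of all genes. Rarer motifs had few matches. The AP-1 motif TGANTCA was present at Wnt5b, the ETS motif CCGGAAG at Gdf9 and Bmp4, and the E-box CACGTG at Gdf9, Wnt9a, Bmp4, Fgf6 and Fgf21, against 6.91%, 10.8% and 7.75% of all genes. The TCF/LEF motif CTTTGAT was present at Wnt8a, the HNF4 motif CAAAGTCCA at Wnt3, and the CTCF core CCACNAGG at Fgf9, Fgf17 and Wnt1, against 3.41%, 0.419% and 5.19%. The HNF1 core GTTAATNAT was present at none, against 0.748%. Bmp2, with a promoter peak in replicate 2 alone, is not covered by these matches at the 5′ end. Within promoter peaks, a motif lay inside a footprint of both libraries at 8 ligands: Wnt5b, Wnt7a, Fgf22, Bmp4, Bmp6, Bmp8a, Gdf15 and Gdf9. That count has no share over all genes beside it, so it does not set the ligands apart. A match is a run of letters, and binding was not measured.

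From 10 kb before to 10 kb after each gene, promoters included, the median number of shared peaks, those overlapping between the libraries, was 2, as over all genes, and more than 1 kb from every start it was 1, again as over all genes. Only Fgf6, Fgf16 and Gdf1 (5.08%) had no peak of either library, against 17.5% of all genes. Within the gene body alone the shares were 25.4% and 27.0%, and among the stronger 50% of peaks 27.1% and 26.5%, so this difference depends on both choices. Another 7 had peaks but none shared: Fgf3, Fgf4, Fgf5, Fgf13, Fgf14, Fgf23 and Bmp3. In all 16.9% of ligands had no shared peak, against 24.3% of all genes. Among closed ligands 15 of 22 (68.2%) had a shared peak in this range, against 32.4% of all closed genes. The median CpG ratio was 0.468 in closed ligands and 0.180 in all closed genes, and its part in this difference was not tested. Ligand and other genes had similar median lengths, 16.7 and 17.4 kb.

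The 162 pairs of a ligand gene and a shared site held 159 different sites. Of the pairs, 35 lay in the gene's own promoter, 23 within 1 kb of a start of another coding gene, and 102 more than 1 kb from every annotated start. Of those 102, 54 were in introns, 28 upstream, 16 downstream and 4 in exons, and they belonged to 44 genes. In 92 of them (90.2%) the peak of each library held a footprint, not necessarily over the same bases. This share has none over all genes beside it. Their median heights, 2.62 and 1.44, were close to the 2.86 and 1.61 of the shared promoter sites.

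Fgf1 and Wnt5b had the most shared peaks, 14 each. At Fgf1 replicate 1 had 27 peaks and replicate 2 had 14, of which 10 were shared and distant from every start. Its tallest were in introns 6.19 kb from the 5′ end, at 10.8 and 8.65, and 47.2 kb from it, at 10.9 and 8.5, taller than its promoter. At Wnt5b both libraries had 14 peaks and every peak was shared. A start of Fbxl14 lies within the Wnt5b gene, and 3 of the sites were within 1 kb of it, including an intronic one at 4.27 and 2.47.

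Bmp7 had 10 shared peaks and Bmp6 had 9. The tallest of Bmp7 was intronic, 38.9 kb from the 5′ end at chr2:172901321-172901540, with heights of 7.77 and 7.39, which again exceeded its promoter in both libraries. In Bmp6 the promoter remained the tallest, and an intronic site 84.8 kb from the 5′ end had 4.04 and 2.35. Bmp1, Fgf9, Fgf11, Fgf17, Fgf22 and Gdf15 followed with 6 shared peaks each. Gdf15 had its tallest site 1685 bp upstream of its start, at 6.89 and 4.15.

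Some counts came from neighbouring genes. At Fgf22 the tallest sites in range were at starts of Rnf126, at 25.4 and 23.1, and Polrmt, at 17.8 and 13.9. The tallest at Fgf11 was near a start of Chrnb1, at 23.3 and 17.3, and that at Wnt10b at a start of Arf3, at 13.5 and 6.54. Among closed ligands, Fgf17 had 6 shared peaks, 3 of them near starts of Dmtn (the tallest at 9.59 and 7.46), and Fgf2 had 4, the tallest being at Nudt6 and Spata5, at 18.8 and 16.6.

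Other closed ligands had shared sites more than 1 kb from any start of another coding gene. Wnt6, closed at its promoter, had an intronic site at chr1:74773181-74773380, 1289 bp from its start, with heights of 5.73 and 3.79. Fgf8 had upstream sites 3586 and 4666 bp from its start, the second at 4.61 and 2.64. Both were closer to a start of Npm3, at 2909 and 1809 bp. A further shared site in range of Fgf8, at 4.77 and 1.94, lay over a start of Npm3. Wnt8a had an upstream site 3873 bp from its start at 4.86 and 2.31. Bmp5 had an intronic site at 2.05 and 2.59 and a downstream one, 982 bp from the start of a non-coding gene, at 3.41 and 2.86. The first of these was taller in replicate 2. Gdf11, with a promoter peak in replicate 1 alone, had an upstream site 3823 bp from its start at 5.72 and 2.67. At Wnt5a, in contrast, the only shared site was downstream, at 0.761 and 0.978. Which gene each of these sites acts on was not measured.

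The very long ligand genes had fewer shared peaks than the median gene of that length, but other such genes had as few. Fgf12, Fgf13 and Fgf14 are each over 500 kb long and had 4, 0 and 0 shared peaks. Of all 230 genes of at least 500 kb the median was 6, with 28 at 0 and 108 at 4 or fewer.

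**Figure D5:**
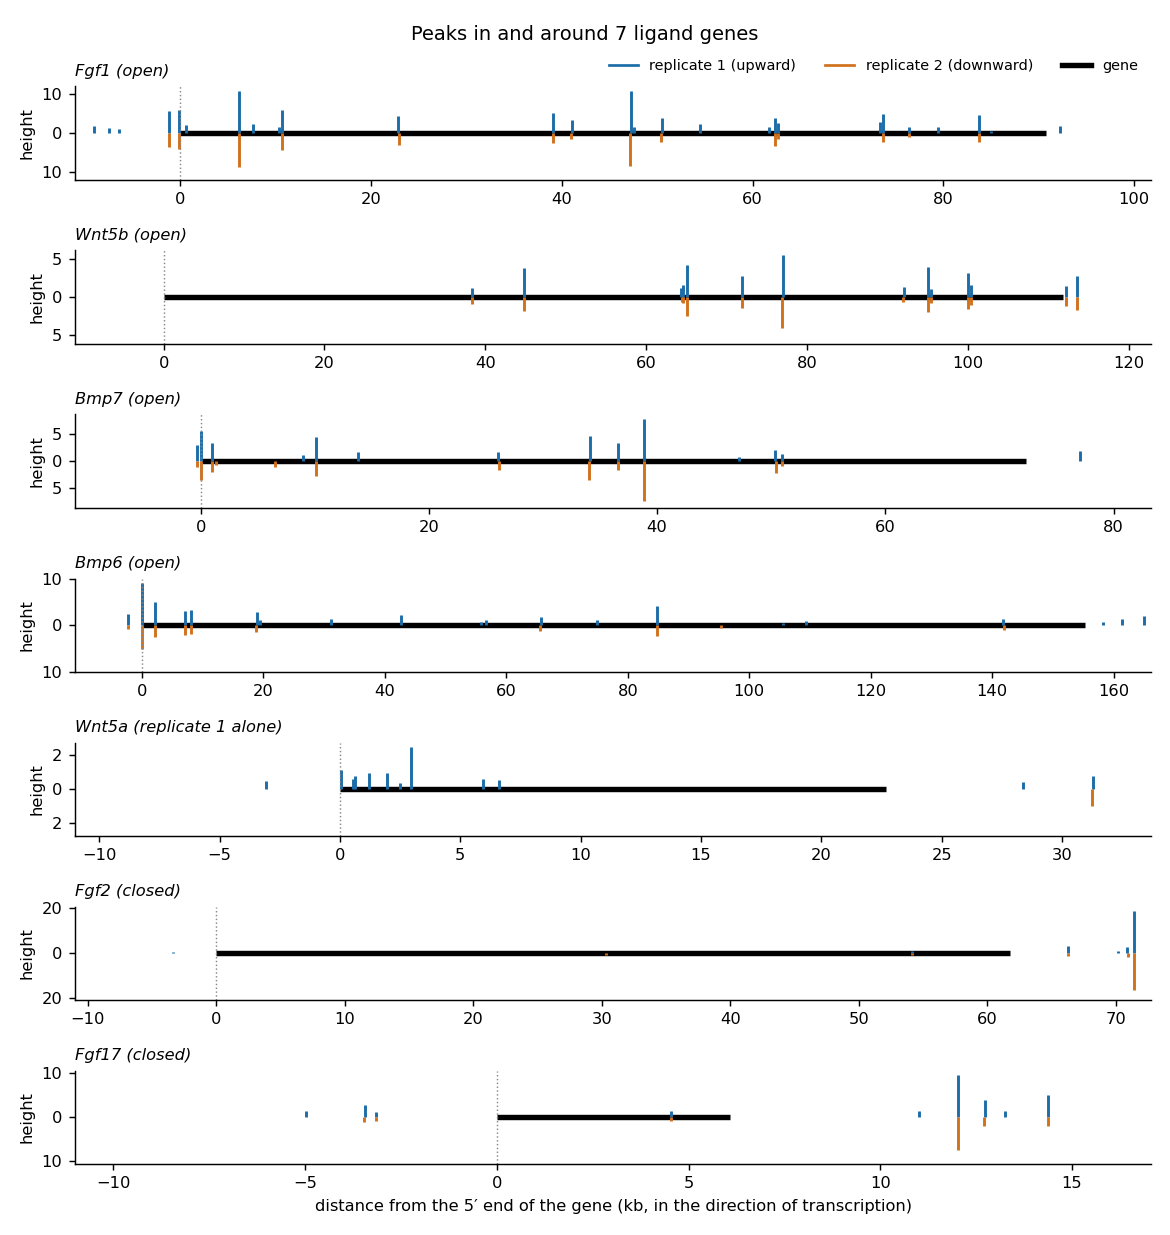
Peaks of replicate 1 (upward) and replicate 2 (downward) by height (authors' signal value) and distance from the 5′ end (kb, in the direction of transcription) in and around 7 ligand genes, whose extent is the black bar. Fgf1 and Bmp7 have intronic peaks taller than their promoters, Wnt5a has promoter peaks in replicate 1 alone, and the tallest peaks at Fgf2 and Fgf17 lie beyond the 3′ end.

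The genes that receive, restrain and answer these signals were taken as 8 lists. They held 80 different genes, of which 60 (75.0%) were open, 10 had a peak in replicate 1 alone and 10 were closed. Their median CpG ratio was 0.758, against 0.583 in the ligand genes and 0.552 in all genes, and its part in the open share was not tested. Of 32 receptors and co-receptors 26 (81.2%) were open, against 60.7% of all genes. Among Wnt receptors 12 of 15 were open, led by Fzd7 at 14.6 and 14.5, Fzd4 at 18.3 and 11.4 and Fzd5 at 13.1 and 8.73. Fzd10, Lrp5 and Ror2 had a peak in replicate 1 alone. Among FGF receptors 6 of 7 were open, led by Fgfr4 at 7.77 and 5.26, Fgfr3 at 6.36 and 5.12 and Fgfr1 at 6.18 and 4.02. The Klotho gene Kl, co-receptor for Fgf23 in kidney, had 4.06 and 2.24, and Klb, co-receptor for Fgf21, was closed.

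Of 10 BMP receptors 8 were open, led by Acvr2b at 13.9 and 7.68, Acvr2a at 11.3 and 6.00 and Acvr1 at 10.6 and 5.67. Acvrl1, an endothelial receptor for Gdf2, had a peak in replicate 1 alone, and Gfral, the Gdf15 receptor of the hindbrain, was closed. Of 14 genes of Wnt inhibition and secretion 7 were open, led by Porcn at 5.11 and 2.78 and Wls at 4.78 and 2.49, which attach lipid to Wnts and carry them out, and Notum at 4.34 and 2.22, which removes that lipid. The inhibitor genes Dkk4, Sfrp2, Sfrp4, Sfrp5 and Sost were closed. Of 12 BMP antagonists 6 were open, led by Fstl3 at 20.7 and 19.2, Twsg1 at 11 and 6.65 and Chrdl2 at 5.61 and 3.29.

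Genes known to be induced by the pathways were nearly all open, against 60.7% of all genes. Their lists had median CpG ratios of 0.829 (FGF), 0.762 (BMP) and 0.779 (Wnt). In the 2 groups of all genes with the highest ratios, 85.1% and 92.8% were open, and the part of CpG content was not tested. All 8 FGF feedback inhibitors and targets were open, led by Etv5 at 26.8 and 27.7, Dusp6 at 19.0 and 17.6 and Spry2 at 13.5 and 11.4. All 6 BMP targets were too, led by Id2 at 24.1 and 23.0, Id1 at 22.0 and 13.0 and Smad6 at 20.0 and 11.6. Of 9 Wnt targets 8 were open, led by Rnf43 at 8.51 and 6.22, Axin2 at 7.74 and 5.72 and Znrf3 at 7.30 and 4.49, and Lef1 was closed. Notum is in both Wnt lists. The median height of open partner promoters was 6.41 in replicate 1 and 4.43 in replicate 2, against 3.20 and 1.82 in open ligands. An open promoter does not measure transcription, and the state of each pathway was not measured.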

How the data were processed

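DNase-seq was performed on 2 libraries of kidney tissue, biological replicates of 1 group. Per the file headers and descriptions deposited with them, the authors derived every file per library from a filtered alignment to mm10. The sources used here do not give the aligner, peak caller, versions or read totals, so depth per library is unknown. Each peak carries a signal value deposited by the authors, used to describe, rank and bin peaks. Intervals with a false discovery rate (q-value) under 0.05 were also deposited. All deposited footprints carry 0.01 and were not ranked. The stricter of the authors' 2 peak sets (0.001) was used, and the wider (0.05) as an alternative.

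Genes and starts came from GENCODE M21, and sequence from the mm10 reference. Peaks were assigned to promoters and loci, and shared between libraries, by an overlap of at least 1 base. CpG ratios were taken over about 1 kb around the 5′ end. Analyses were run in Python 3.11.15 with pandas 2.3.3, numpy 2.4.6 and pysam 0.24.0, and the steps were tested on simulated data. Reads were aligned to 1 parental genome, and how CAST/EiJ alleles affect peaks was not tested.

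The members and lists were chosen with earlier results of these data known. Full values were given by rule to the 4 highest ranking open members of each family, all members with a peak in 1 library, the 5 members and the 5 closed members with most shared peaks (further ties named too), and the 3 highest and the closed genes of each partner list, except that closed BMP antagonists are not reported here by name. Sequences were shown for the 2 highest ranking members of each family away from chromosome 18, and for those with a motif in a footprint of both libraries, where sequence outside annotated untranslated regions was left. Other open members, the distant sites named and the genes beside them were picked with their values in view. The marker lists were proximal tubule, thick ascending limb, distal tubule, collecting duct, podocyte, endothelium, adrenal cortex, liver, muscle, adipocyte, immune and stroma. No test was run, as there was 1 group.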

Additional observations from a re-analysis of the deposited data

How the results depend on the processing

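The 8 counts and medians were recomputed under 63 settings in all, and 42 left them within 1.5 times of the value reported (for the median, within 1 SD between the libraries). Open ligands (18) numbered 32 in the wider peak set and 19 to 36 with each replicate left out. In the Wnt family (4) they numbered 2 with a window of 500 bp, 7 with 2500 bp and 8 in the wider set. They numbered 2 among the stronger 50% of peaks and 4 to 10 with each replicate left out. The Wnt share was 62.5% without replicate 2, near the 66.9% of all genes, but 25% against 60.9% without replicate 1. It was 12.5% against 59.1% with 500 bp, 43.8% against 63.7% with 2500 bp and 12.5% against 52.8% among the stronger 50% of peaks. In the wider set it was 50% against 64.9%. The Fgf count (7) ran from 7 to 12 with each replicate left out (31.8% against 60.9% without replicate 1, and 54.5% against 66.9% without replicate 2). The Bmp and Gdf count (7) was 14 in the wider set (66.7%, against 64.9% of all genes). With each replicate left out it was 8 to 14 (38.1% against 60.9% without replicate 1, and 66.7% against 66.9% without replicate 2). In the wider set and without replicate 2 the Bmp and Gdf share was thus near that of all genes. Without replicate 2, 61.0% of ligands had a promoter peak against 66.9% of all genes, and among the stronger 50% of peaks 20.3% were open against 52.8%. Closed ligands (22) numbered 41 among the stronger 50% of peaks (69.5%, against 40.6% of all genes) and 23 to 40 with each replicate left out (39.0% against 33.1% without replicate 2, and 67.8% against 39.1% without replicate 1). Ligands with no peak in range (3) numbered 15 without flanks, 0 with flanks of 50 kb, 1 in the wider set, 16 among the stronger 50% of peaks and 3 to 10 with each replicate left out. The shares of all genes were 27.0%, 10.5%, 13.5% and 26.5% in the first 4 settings, so ligands came close to all genes without flanks (25.4%) and among the stronger peaks (27.1%). The median of shared peaks (2) was 6 with flanks of 50 kb, as over all genes. It was 0 among the stronger 50% of peaks, against 1 over all genes. With each replicate left out, all peaks of the remaining library were counted in place of shared ones. The median was then 2 without replicate 1 and 4 without replicate 2, again as over all genes. Promoter footprints in both libraries (26) numbered 27 to 40 with each replicate left out (45.8% against 62.5% of all genes without replicate 1, and 67.8% against 67.6% without replicate 2). Beyond fewer peaks or wider windows entering these counts, the cause was not tested. The overlap of 50% of the shorter peak gave no value for ligands with no peak in range, since that count uses no overlap between libraries. No paired analysis was possible because there was 1 group. Read depth is unknown, so a missing peak in replicate 2 is not evidence of closed DNA.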

Other observations

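Several ligand genes lie side by side, and neighbours within 50 kb of each other formed 7 pairs. Wnt3a and Wnt9a are 16.2 kb apart, the first closed and the second open. Wnt1 and Wnt10b (11.7 kb apart), Wnt6 and Wnt10a (6.19 kb), Fgf3 and Fgf4 (2.93 kb) and Gdf2 and Gdf10 (3.06 kb) each combined a closed gene with one that had a promoter peak in replicate 1 alone. Fgf4 and Fgf15 (31.3 kb) combined a peak in replicate 1 alone with an open promoter, and Fgf6 and Fgf23 (44.7 kb) were both closed. Gdf2 and Gdf10 have 2 shared sites in common, inside Gdf10 and upstream of Gdf2, with heights of 2.28 and 0.683, and of 1.71 and 0.733.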
